A study of Homo sapiens with 2 samples.

Results

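The genes described here encode nuclear subunits of the respiratory chain and of ATP synthase, the 5 protein complexes of oxidative phosphorylation. They were chosen by symbol among the annotated genes outside the mitochondrial genome: the NDUF genes of the A, B, C, S and V series, SDHA to SDHD, all UQCR genes, CYC1 and CYCS, the COX4 to COX8 genes and the ATP5 genes, without symbols of pseudogenes. The rule found 87 symbols among 55773, and 81 of them were measured, meaning a mean over both libraries of at least 1 TPM (a level scaled by transcript length and by library). Complex I had 37 members, complex II 4, complex III 10, complex IV 17 and complex V 19. Counts and sums by complex are of genes matched by symbol and may lack subunits: NDUFAB1 of complex I, for example, was not matched. The rule used names only, so it also took a few genes that are not fixed subunits: CYCS, the cytochrome c that carries electrons from complex III to complex IV, COX7A2L, a factor of supercomplexes, and ATP5S, ATP5SL and the read-through gene ATP5J2-PTCD1.

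Both libraries came from the human cell line NCI-H2030, derived from a lung adenocarcinoma, and were prepared from total RNA with a kit that keeps the strand. One group was treated with SC and the other with miR-494-3p AS, abbreviations that the labels do not explain, and the groups are called SC and AS below. The series' title names miR-494-3p, a microRNA, together with SET, which inhibits protein phosphatase 2A. Each group had 1 library, so there were no replicates, no test was possible, and every difference below is one between 2 libraries.

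In oxidative phosphorylation, complexes I and II pass electrons from NADH and from succinate to ubiquinone, complex III passes them on to cytochrome c, and complex IV passes them to oxygen. Complexes I, III and IV pump protons out of the mitochondrial matrix as they do so, and complex V uses the returning protons to make ATP. Complex II is encoded by nuclear genes alone. The other complexes join nuclear subunits, made in the cytosol and imported, with a few subunits encoded by the mitochondrial genome, so that their assembly draws on both genomes.

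Coverage per unit of FPKM (a level scaled by length and depth), the one measure of depth used here, was 3.62 in SC and 3.54 in AS, and 12816 genes reached 1 TPM in SC and 14177 in AS. SET was at 30.4 (SC) and 79.1 TPM (AS), and MIR494 was listed at 0 in both. The MIR494 value is that of the gene's row and does not give the level of the mature microRNA, which was not examined. Of 10 epithelial and lung adenocarcinoma markers, 5 reached 1 TPM in at least 1 library, with sums of 1114 (SC) and 883 TPM (AS) that came mostly from the keratins KRT8, KRT18 and KRT7. Other epithelial markers were low or absent: KRT19 was listed at 0 in both, CDH1 was near 0, and EPCAM was at 0.604 (SC) and 1.84 TPM (AS). The lung markers NKX2-1 and SFTPB were near 0, SFTPC was listed at 0, and NAPSA was at 1.62 and 1.04 TPM. Among markers of other cells, 3 of 6 fibroblast genes reached 1 TPM (sums of 32.3 and 25.4 TPM), 1 of 5 leukocyte genes did (CD14, at 9.02 and 4.21 TPM), and no muscle gene and none of the endothelial genes with a value did (PECAM1 was not found by symbol). PTPRC, CD3E and KDR were listed at 0. The part of any other cell type in the results was not tested.

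The respiratory chain genes were highly expressed and their total hardly differed between the libraries. They summed to 20125 TPM in SC, or 2.07% of the TPM of annotated genes, and to 19957 TPM in AS, or 2.06%. At least 100 TPM was reached in both libraries by 55 members, and the median member was at 168 (SC) and 175 TPM (AS), against 8.45 and 11.9 TPM for all 13669 measured genes. In bulk RNA a lower total from fewer cells of a type and one from less RNA per cell cannot be told apart. Differences between the libraries are given as log2 ratios, log2((AS + 1)/(SC + 1)) on the TPM scale, which understate the change of genes of low level. Where a pair of levels is given, SC comes first and AS second, and a signed or unsigned number in parentheses after it is the log2 ratio in TPM.

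No member was 2-fold higher or 2-fold lower in AS on this scale. Among all measured genes, 18.6% were past 2-fold, 16.5% higher and 2.17% lower. The members also differed less among themselves: 67 of 81 lay within 1.5-fold of equality (82.7%, against 58.3% of all measured genes), and the standard deviation of their log2 ratios over genes was 0.38, against 0.72 over all measured genes. At 1.5-fold, 12 members were higher and 2 lower, where 34.2% and 7.56% of all measured genes were. Their median log2 ratio was 0.05, while that of all measured genes was 0.28, and 25 of 81 members lay above the latter, which 50% of all measured genes exceed by construction.

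Genes of high level had smaller ratios. Among the 2778 genes that averaged 50 TPM or more, 5.04% were past 2-fold, and their median log2 ratio was -0.04. The 66 members of that level had a median of -0.00, which is 0.04 above that of all genes of that level, whereas among genes that averaged 5 TPM or more the members lay 0.15 below the median. The part of level in the members' lower median was not tested. At 1.5-fold, 7 of these 66 members were higher and 1 lower, where 13% and 8.28% of all genes of that level were. Above this floor the members were still of higher level, with a median of 204 TPM in SC against 111 TPM for all genes of at least 50 TPM.

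**Figure D1:**
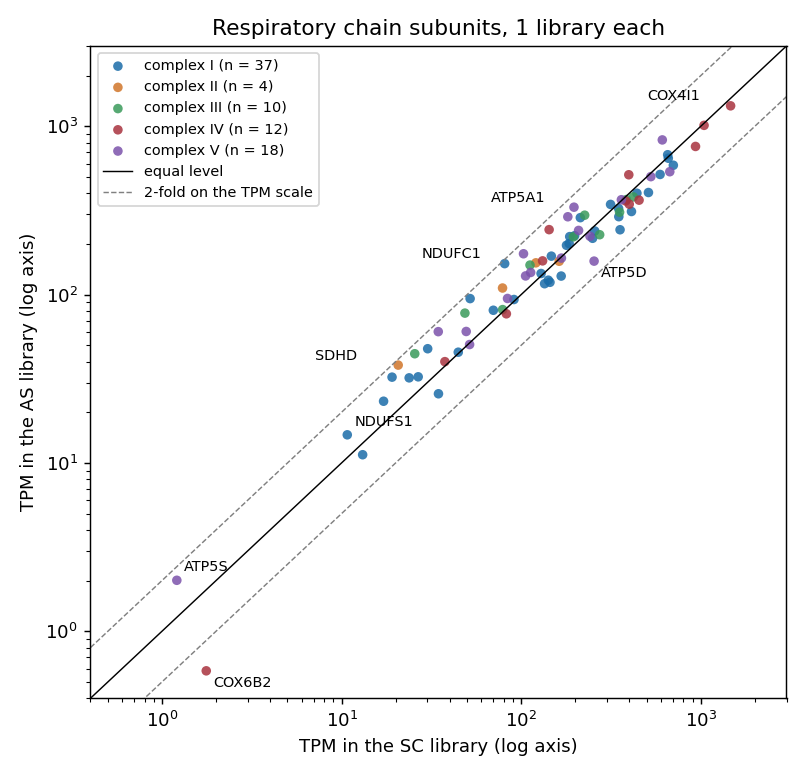
Level of each measured member in the SC library (x axis, TPM, log scale) and in the AS library (y axis, TPM, log scale), 1 point per gene, coloured by complex, with the line of equal level and dashed lines at 2-fold on the TPM scale itself. COX6B2, at 1.76 and 0.582 TPM, is the only point outside the dashed lines, and it lies inside 2-fold once 1 TPM is added to both values.

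The promoters of these genes were searched for short sets of letters, among them those that 3 transcription factors are known to read. NRF1 is an activator named for its role at respiratory genes, GABPA is a factor of the ETS family known there as NRF-2, and YY1 is a zinc finger factor. RefSeq promoters (GRCh38.p14, 250 bases before to 50 after the start of the gene) matched 65 of the 81 measured members. Members with no entry included ATP5B, ATP5D, ATP5G3, ATP5J2, ATP5J2-PTCD1, ATP5S, COX6C, CYC1, NDUFA4, NDUFB5, NDUFB9, NDUFC2, NDUFS5, SDHC and UQCRB. Searched on both strands, the NRF1 letters GCATGCGC stood in 14 of the 65 promoters (21.5%), against 3.27% of all 27305 promoters and 5.83% of the 9161 promoters of measured genes. They were found in 5 promoters of complex I, 2 of complex II, 1 of complex III, 2 of complex IV and 4 of complex V. The longer palindrome GCGCATGCGC, which contains the shorter letters on both strands, stood in 4 promoters (NDUFA8, NDUFB4, SDHD and ATP5C1), or 6.15%. It stood in 1.36% of all promoters and in 2.36% of those of measured genes.

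The following stretches of 30 bases show the palindrome in a gene of complex I, of complex II and of complex V, and the shorter letters in CYCS, the gene of cytochrome c, and in COX5B. Each is written 5′ to 3′ in the direction of the gene, with the NRF1 letters in capitals.
NDUFB4, chr3:120596167-120596196, plus strand: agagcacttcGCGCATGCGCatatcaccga
SDHD, chr11:112086753-112086782, plus strand: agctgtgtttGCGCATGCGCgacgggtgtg
ATP5C1, chr10:7788145-7788174, plus strand: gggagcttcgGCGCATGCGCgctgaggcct
CYCS, chr7:25125411-25125440, minus strand: catgctcgccaGCATGCGCgcgcaggtcct
COX5B, chr2:97645915-97645944, plus strand: ggcagagctggGCATGCGCaatttccgccc

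The ETS letters CCGGAAGT stood in 9 of the 65 promoters (13.8%), against 4.44% of all promoters and 9.18% of those of measured genes. SDHD and COX5B, whose NRF1 letters are printed above, held ETS letters as well, and the next lines give them in capitals, in SDHD as the opposite strand reads.
SDHD, chr11:112086784-112086813, plus strand: accgcctctcgACTTCCGGttcacccagca
COX5B, chr2:97646014-97646043, plus strand: gaagcccgcccCCGGAAGTccctcctgtct

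The YY1 letters ATGGCGGC stood in 12 of 65 promoters (18.5% against 3.21% of all promoters and 6.83% of those of measured genes). Of these 12 genes 9 belonged to complex I, and in 10 the match lay after the start of the gene. The letters begin with ATG, as coding sequences do, and whether these matches lie at the start of the coding sequence was not examined. At least 1 of the 3 sets of letters was found in 29 members (44.6%), and in 2731 of all 27305 promoters. The TATA letters TATAAA, in 6 members (9.23%), were found in 11.95% of all promoters and in 5.22% of those of measured genes. The CCAAT letters, in 23 members (35.4%), were found in 35.7% and 36.6% of them. Members with the NRF1 letters had a median log2 ratio of 0.00 and those without 0.05. Other letters were searched as well, and the sets given here were chosen after their shares had been seen. A match is a description of the sequence and not of binding.

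Complex I is the NADH dehydrogenase of the chain and has the most subunits. Its 37 members, all measured, summed to 8188 (SC) and 7801 TPM (AS), with a median log2 ratio of 0.04 and a range from -0.55 to 0.91. The ratio was above 0 for 20 of them, while it was above 0 for 66.2% of all measured genes, and 8 lay above the median of all measured genes. Of the 37, 33 lay within 1.5-fold of equality, 4 were more than 1.5-fold higher and none more than 1.5-fold lower. Core and accessory subunits had the same median in TPM, 0.04 for the 7 core and 0.04 for the 30 accessory members. In coverage the medians were 0.11 and -0.02.

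The core subunits carry the flavin, the iron-sulfur clusters and the ubiquinone site. NDUFV1, which binds NADH and the flavin, was at 349.6 (SC) and 290.3 TPM (AS), a log2 ratio of -0.27. NDUFV2, its iron-sulfur partner, was at 179 and 196 TPM (0.13). NDUFS1, the large iron-sulfur subunit, had the lowest level in complex I in SC, at 10.8 (SC) and 14.7 TPM (AS). Its log2 ratio was 0.42 in TPM and 0.77 in coverage, the mean depth of reads over the gene, so the size of this difference rests on the measure. The 3 subunits of the NADH-oxidizing tip thus included values on both sides of equality.

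The 4 core subunits of the arm that leads to ubiquinone all lay below the median of all measured genes in TPM. NDUFS7, at the ubiquinone site, was at 135 (SC) and 116 TPM (AS), with a log2 ratio of -0.22. NDUFS3, a neighbour in the same arm, was at 129 and 133 TPM (0.05), but its assembled locus had a log2 ratio of 0.48, above the median of 0.26 over the loci of all genes. NDUFS8, an iron-sulfur subunit (chr11:67798084-67804111, GRCh37, plus strand), had the smallest ratio of complex I, at 355 (SC) and 243 TPM (AS), a log2 ratio of -0.55 in TPM and -0.50 in coverage. The median GC content of these 4 transcripts was 59.5%, against 44.9% for the 3 of the NADH-oxidizing tip. The part of GC content in this was not tested.

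Accessory subunits surround the core and are needed for its assembly and stability. The 12 measured members of the A series had a median log2 ratio of -0.16, and 1 of them lay above the median of all measured genes. The 11 of the B series had a median of 0.13. The highest ratios of complex I came from 3 accessory genes. NDUFC1, a small subunit of the membrane arm (chr4:140188034-140223705, GRCh37, minus strand), was at 80.9 (SC) and 153 TPM (AS), the largest ratio of all members at 0.91. NDUFS4, a subunit of the arm in the matrix, was at 51.97 and 94.7 TPM (0.85). NDUFB5, of the membrane arm, was at 19.1 and 32.3 TPM (0.73). NDUFC2, the partner of NDUFC1, came next, at 30.2 and 47.7 TPM (0.64), so that both members of the C series were more than 1.5-fold higher in AS. Their coverage ratios differed by less than 0.1 from the TPM ratios.

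At the other end of the accessory subunits, NDUFV3, at the NADH-oxidizing tip, was at 34.6 (SC) and 25.8 TPM (AS), with a log2 ratio of -0.41. NDUFB7, on the outer face of the membrane arm, was at 411 and 312 TPM (-0.40). None of these was past 1.5-fold. NDUFA4 carries the name of complex I but is a subunit of complex IV in current accounts, and was at 70.0 and 80.7 TPM (0.20). The most abundant members of complex I by TPM in SC were NDUFA13, at 703 (SC) and 587 TPM (AS), and NDUFS5, at 659 and 646 TPM. Levels in SC within this 1 complex thus ranged from 10.8 TPM (NDUFS1) to 703 TPM.

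Complex II, succinate dehydrogenase, is also an enzyme of the citric acid cycle. Its 4 members summed to 383 (SC) and 460 TPM (AS), a ratio of sums of 1.20, the highest of the 5 complexes. SDHA, the flavin subunit that oxidizes succinate, was at 163 (SC) and 158 TPM (AS), with a log2 ratio of -0.04. SDHB, the iron-sulfur subunit, was at 78.7 and 109 TPM (0.47). The membrane anchors SDHC and SDHD hold the heme and the ubiquinone site. SDHC was at 121 and 154 TPM (0.35 in TPM, 0.12 in coverage). SDHD (chr11:111957497-111990353, GRCh37, plus strand) was at 20.7 and 38.1 TPM, a log2 ratio of 0.85, of which a second, overlapping row of the same symbol held 1.30 and 2.69 TPM. The median of the complex was 0.41 in TPM and 0.29 in coverage, so that it lay above the median of all measured genes in TPM and, by -0.03, below it in coverage. SDHA, the most abundant of the 4, was the only one with a ratio below 0.

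Complex III, the cytochrome bc1 complex, had 10 members, all measured, which summed to 2119 (SC) and 2153 TPM (AS) with a median log2 ratio of 0.11. Its catalytic nuclear subunits differed little. CYC1, cytochrome c1, was at 421 (SC) and 380.5 TPM (AS), with a log2 ratio of -0.15. UQCRFS1, the Rieske iron-sulfur protein, was at 78.8 and 81.4 TPM (0.05). The core proteins UQCRC1 and UQCRC2, which resemble processing peptidases, went apart. UQCRC1 was at 274 (SC) and 227 TPM (AS), with a log2 ratio of -0.27, while UQCRC2 (chr16:21963981-21994981, GRCh37, plus strand) was at 48.6 and 77.6 TPM (0.66). The GC content of the UQCRC1 transcript was 59.5% and that of UQCRC2 45.2%.

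The 5 small subunits of complex III had a median of 0.17. UQCRB, next to the ubiquinone site, was at 112 (SC) and 149.7 TPM (AS), with a log2 ratio of 0.42, and UQCRH, the hinge protein that meets cytochrome c1, was at 226 and 296 TPM (0.39). UQCR11, with a pair of overlapping rows summed here, was at 353 and 309 TPM (-0.19). Of this, 218 and 185 TPM came from a row that spans 27107 bases, against 8310 for the other row, so the division of reads between them is uncertain. CYCS, counted here with complex III, had the largest ratio of the group, at 25.6 (SC) and 44.5 TPM (AS), with a log2 ratio of 0.78. The sum of complex III differed by a factor of 1.02 between the libraries although its members ranged from -0.27 to 0.78.

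Complex IV, cytochrome c oxidase, was the only complex with a median log2 ratio below 0 in TPM, at -0.09, and 2 of its 12 measured members lay above the median of all measured genes. It summed to 5471 (SC) and 5196 TPM (AS). Many of its subunits exist as a general isoform and as an isoform of 1 tissue, and both are described here. Their levels do not test the labelled cell type. COX4I1, the general form of the regulatory subunit IV, was the most abundant member of all, at 1465 (SC) and 1322 TPM (AS), with a log2 ratio of -0.15. COX4I2, its counterpart known from lung and from low oxygen, was listed at 0 in both libraries. COX6A1 was at 1043 and 1013 TPM (-0.04), and its heart and muscle form COX6A2 was listed at 0 in both. COX7A2 was at 382 and 360.0 TPM (-0.08), against 0.143 and 0.157 TPM for the muscle form COX7A1. The general isoforms thus made up nearly all of the transcripts of these families in both libraries.

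In the families with forms known from testis, COX6B1 was at 453 (SC) and 364 TPM (AS), with a log2 ratio of -0.32, and COX6B2 (chr19:55860674-55866182, GRCh37, minus strand) at 1.76 and 0.582 TPM (-0.81), the smallest ratio of all members. At this level COX6B2 depends on the added constant, with a log2 ratio of -1.45 when 0.1 TPM is added in place of 1. COX8A was at 935 and 759 TPM (-0.30), while COX8C was listed at 0 in SC and at 0.25 TPM in AS. COX7B was at 37.6 and 40.0 TPM (0.09), the lowest level among the general isoforms, and COX7B2 was at or near 0. The 10 general isoforms had a median of -0.06.

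The largest ratios of complex IV came from 2 small membrane subunits and COX5A. COX6C, a small subunit of the inner membrane, was at 143 (SC) and 243 TPM (AS), with a log2 ratio of 0.76, the only one of the complex more than 1.5-fold higher. COX7C was at 397 and 515 TPM (0.37), and COX5A, which faces the matrix, at 132 and 159 TPM (0.27). The GC content of the COX6C and COX7C transcripts, 43.9% and 41.6%, was below the median of the complex, 51.5%.

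Complex V is ATP synthase, and its 18 measured members summed to 3964 (SC) and 4347 TPM (AS) with a median log2 ratio of 0.23. The genes of the F1 head, which makes ATP, had the widest range. ATP5A1 (now ATP5F1A), the alpha subunit, was at 197 (SC) and 331 TPM (AS), with a log2 ratio of 0.75. ATP5B (now ATP5F1B), the catalytic beta subunit, was at 611 and 829 TPM (0.44), the highest level of the complex in AS. ATP5C1, the gamma subunit that turns inside the head, was at 168 and 165 TPM (-0.02). The ratio of alpha and beta was thus above that of gamma, with which they assemble.

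The delta and epsilon subunits sit at the foot of the turning stalk. ATP5D, the delta subunit (chr19:1241749-1244824, GRCh37, plus strand), was at 255 (SC) and 158 TPM (AS), a log2 ratio of -0.68 in TPM and -0.64 in coverage and the smallest after COX6B2. Its transcript had the highest GC content of all members, 68.7%. ATP5E, the epsilon subunit, was at 103 and 175 TPM, which gives 0.76 in TPM but -0.11 in coverage. It was the only member for which the measures differed by more than 0.7, and the direction of its difference is not settled by these files. The median of the 5 genes of the head was 0.44 in TPM and -0.03 in coverage.

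The peripheral stalk holds the head still against the turning rotor, and all 4 of its genes had ratios above 0, with a median of 0.48. Of all measured genes 66.2% had ratios above 0, and their median was 0.28. ATP5F1, subunit b (chr1:111991486-112005395, GRCh37, plus strand), was at 34.5 (SC) and 60.2 TPM (AS), with a log2 ratio of 0.78, and ATP5O, the subunit that grips the head, at 182 and 289.9 TPM (0.67). ATP5J was at 106 and 129 TPM (0.28) and ATP5H at 209 and 240.5 TPM (0.20). All 4 transcripts were of low GC content, with a median of 45.1%. The stalk was the only group of complex V with all ratios above 0, but ATP5H lay below the median of all measured genes and ATP5J next to it.

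The c ring is the proton-driven rotor, and its 1 protein is encoded by 3 genes. ATP5G2 was the most abundant of them, at 527 (SC) and 502 TPM (AS), with a log2 ratio of -0.07. ATP5G1 was at 361 and 366 TPM (0.02), and ATP5G3 at 49.4 and 60.4 TPM (0.28). The order of the 3 genes by level was the same in both libraries, and their sum was 938 (SC) and 928 TPM (AS). The membrane subunits ATP5I, ATP5J2 and ATP5L, which join enzymes into dimers, had a median of -0.12. ATP5J2, subunit f, was at 672 and 537 TPM (-0.32), but it shares sequence with the read-through gene ATP5J2-PTCD1, at 51.6 and 50.5 TPM, so the division of reads between them is uncertain.

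**Figure D2:**
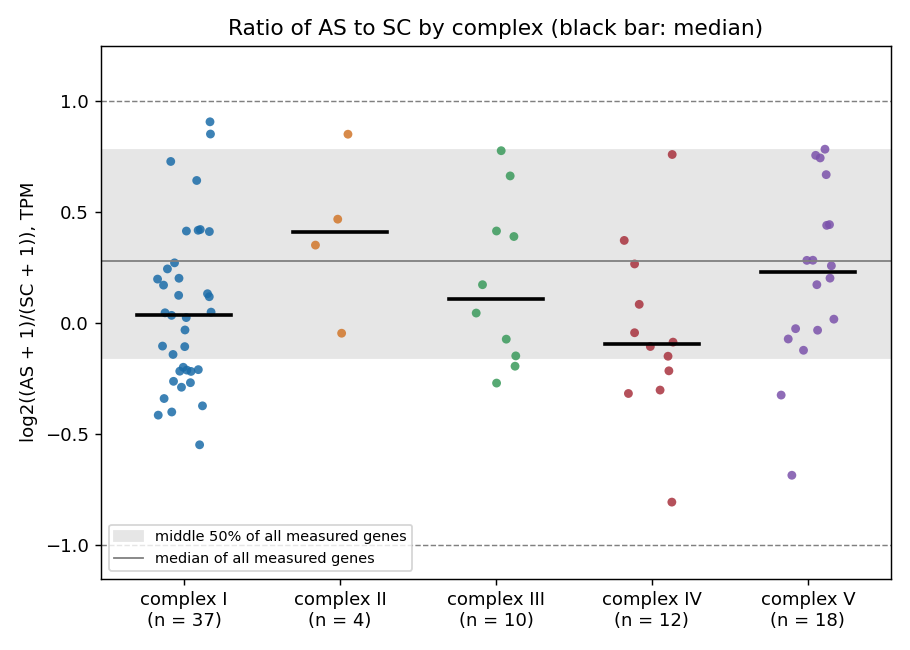
Log2 ratio of AS over SC (y axis) of each measured member, 1 point per gene, by complex (x axis), with a black bar at the median of each complex, a line at the median of all measured genes (0.28), a grey band over their middle 50% and dashed lines at 2-fold. The medians run from -0.09 in complex IV to 0.41 in complex II, and the points of each complex lie on both sides of 0.

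The complexes therefore overlapped widely. Their medians, from complex I to complex V, were 0.04, 0.41, 0.11, -0.09 and 0.23 in TPM, and -0.00, 0.29, 0.08, -0.08 and 0.14 in coverage. Complex II stood highest and complex IV lowest in both, but the members of each complex overlapped in range with those of the others. Among genes that averaged 50 TPM or more the order of the complexes was also headed by complex II, at 0.40 above all genes of that level, with complex IV lowest at -0.05. With 4 genes in complex II and 1 library a group, these medians describe the libraries and do not separate the complexes.

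TPM and coverage gave like values for most members. The log2 ratios differed by at most 0.2 for 76 of 81 members, and 77 had the same sign. No member was past 2-fold in coverage, where 21.3% of all measured genes were. In TPM of the loci assembled from the reads, 72 of 80 members lay within 0.2 of the annotated gene. There NDUFB8 (463 and 3.41 TPM, log2 ratio -6.72) and NDUFA7 (-1.82) were more than 2-fold lower, where 2.88% of all genes were. The locus was chosen in each library separately, so a locus ratio, here and elsewhere in the text, can set different loci against each other. It need not be a change of 1 locus. NDUFB8 and NDUFA7 each have a pair of overlapping annotated rows. These were summed here to 593 (SC) and 517 TPM (AS) for NDUFB8 and to 249.7 and 216 TPM for NDUFA7. The coverage ratios of these genes were -0.19 and -0.26.

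**Figure D3:**
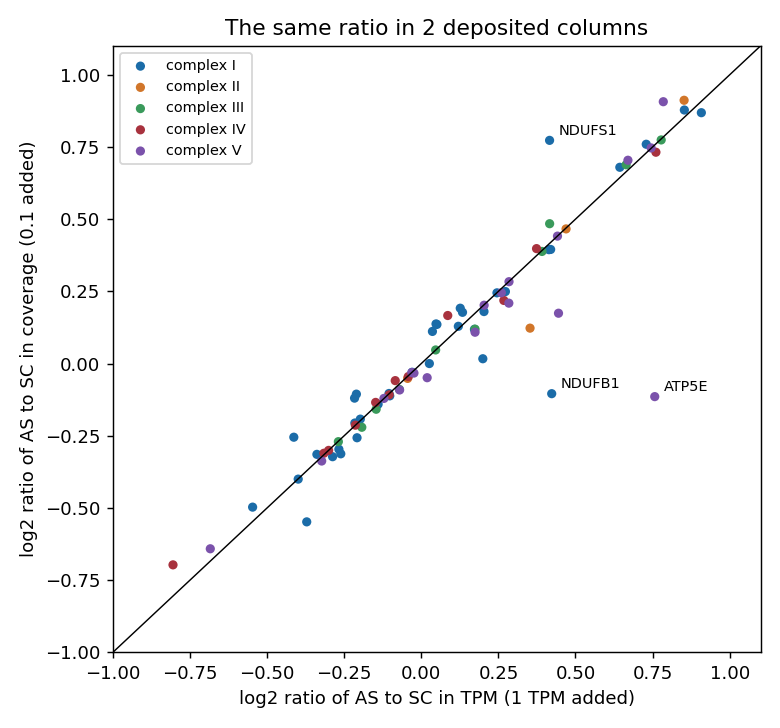
Log2 ratio of AS over SC in deposited coverage (y axis) against that in deposited TPM (x axis) for the 81 measured members, 1 point per gene, with the line of equality. Points lie along the line except for ATP5E, at 0.76 in TPM and -0.11 in coverage, and a few with smaller gaps such as NDUFB1 and NDUFS1.

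The ratio of a member moved with the GC content of its transcript. Across the 81 members the log2 ratio and GC content had a Spearman's rho of -0.71 (Pearson's r -0.67), and across 10650 measured coding genes it was -0.64 (r -0.59). These are descriptions over genes that share the same 2 libraries and are not independent. In coverage rho was -0.72 for the members. With the mean level rho was -0.41 for the members, and with transcript length 0.05, while GC content and level were themselves related (rho 0.44).

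The measured coding genes were set in 4 GC bands of like gene number. The 17 members of the lowest band, up to 44.6% GC, had a median log2 ratio of 0.42, against 0.88 for coding genes of that band. In the second band the 30 members had 0.28 against 0.58, in the third the 21 members had -0.12 against 0.10, and in the highest band the 13 members had -0.27 against -0.20. The members thus followed the same course as all coding genes, at lower values. Among genes of at least 50 TPM the medians of members and coding genes were 0.29 and 0.70 in the lowest band, 0.27 and 0.33 in the second, -0.11 and -0.08 in the third, and -0.27 and -0.28 in the highest. In 3 of the 4 bands the members of that level lay within 0.1 of all coding genes of that level, and in the lowest band 0.29 came from 10 members. The part of GC content in the differences between complexes and roles was not tested.

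**Figure D4:**
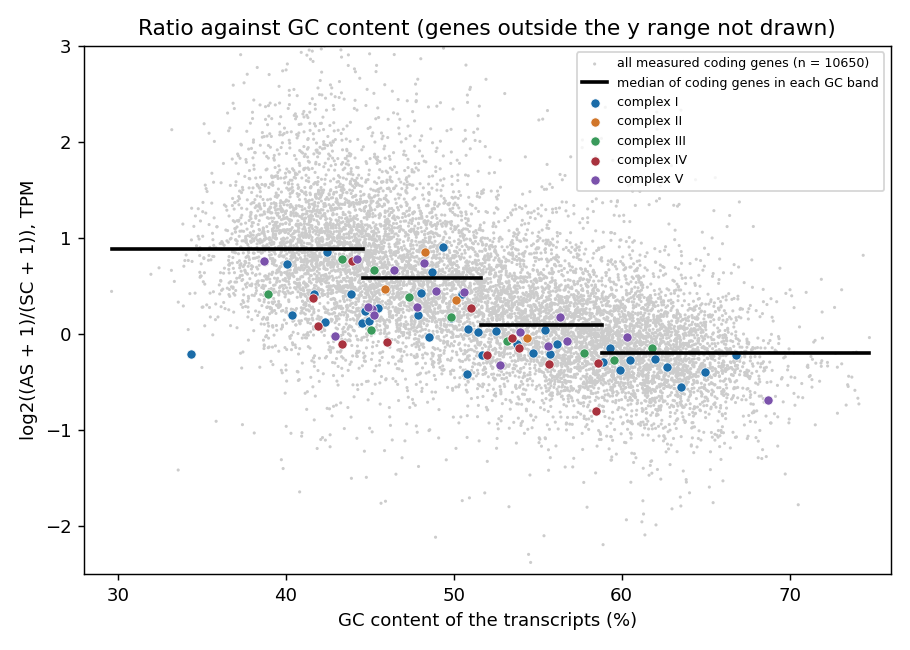
Log2 ratio of AS over SC in TPM (y axis) against the GC content of the transcript in percent (x axis) for the 81 measured members, coloured by complex, over all measured coding genes in grey, with black bars at the median of coding genes in each band of GC content. Members of low GC content lie mostly above 0 and those of high GC content below 0, and ATP5D, at 68.7% GC and -0.68, is the point furthest to the right.

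The microRNA named in the labels pairs with messages through its seed, bases 2 to 8, in capitals here as RefSeq gives the mature sequence.
hsa-miR-494-3p: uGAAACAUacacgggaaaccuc
Its sites were searched as the 8 letters ATGTTTCA and the 7 letters ATGTTTC or TGTTTCA in the longest annotated 3' untranslated region of each gene (GENCODE release 29). A site was found in 18 of 81 members (22.2%) and in 27.7% of 10579 measured coding genes. The untranslated regions of the members were shorter, with a median of 451 bases against 1209. Members with a site had a median log2 ratio of 0.31 and those without -0.03, and coding genes with and without a site had 0.63 and 0.19. The transcripts of members with a site had a median GC content of 44.9% and those without 51.7%, and the part of GC content in this was not tested.

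The 8 letters stood close to the stop codon in COX7C and NDUFA4 and far from it in NDUFA5, and the lines below give them in capitals within the untranslated region, whose bases are counted from its first.
COX7C, bases 3 to 10: ggATGTTTCAgttcctccatt
NDUFA4, bases 6 to 13: atgaaATGTTTCActataacgctg
NDUFA5, bases 1747 to 1754: gggcatcttttATGTTTCAccaacagtgtt
COX7C and NDUFA4, given above, had log2 ratios of 0.37 and 0.20. NDUFA5, which has another such site at bases 4941 to 4948, was at 13.1 (SC) and 11.2 TPM (AS), with a log2 ratio of -0.21. Whether the cells use the longest region was not examined, and a match is a description of the sequence and not of pairing.

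Genes that build the complexes without being part of them were described from lists. Listed symbols that were not found are left out of the counts. Found were 2 of 4 symbols for complex II and 5 of 6 for complex III. For ubiquinone synthesis 13 of 15 were found, and for the mitochondrial transcription system 7 of 11. The assembly factors were counted together with ATPIF1, an inhibitor of complex V. Of these 52 genes 51 were measured, 8 lay 2-fold or more higher in AS and none 2-fold lower, with a median log2 ratio of 0.33. That count is near the share of all genes, of which 16.5% were higher. In coverage 10 of the 51 were 2-fold higher, where 19.3% of all genes were. For complex I, 1 of 15 was 2-fold higher: TMEM126B, a membrane arm factor, at 13.4 (SC) and 43.4 TPM (AS), with a log2 ratio of 1.62. NDUFAF6 followed at 0.99. NDUFAF3, which joins early intermediates, was lowest, at 78.5 and 47.4 TPM (-0.72), next to NDUFAF7 at -0.38, whose coverage ratio was 0.27.

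For complex IV, 4 of 25 factors were 2-fold higher in TPM and 6 in coverage, where 16.5% and 19.3% of all genes were. SCO1, which delivers copper, was at 13.4 (SC) and 43.0 TPM (AS), with a log2 ratio of 1.61. FASTKD3 was at 1.22 (0.88 in its locus). LRPPRC, which stabilizes mitochondrial messages, was at 1.20 (3.54 in its locus), and COX11, another copper factor, at 1.07. SCO2, a relative of SCO1, was at -0.33 (-2.17 in its locus) and PET100 at 100.4 and 61.0 TPM (-0.71). The median of this list was 0.50, against -0.09 for the subunits of complex IV. The factors were of lower level, with a median of 21.4 TPM in SC against 390 TPM for the subunits, and the part of level in this was not tested.

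For complex III, 1 of 5 was 2-fold higher, LYRM7, which carries the Rieske protein, at 0.662 (SC) and 3.35 TPM (AS), with a log2 ratio of 1.39, and UQCC2 was lowest at -0.20. For complex V, TMEM70 (1.499) and ATPAF1 (1.34), which help the rotor and the head to form, were 2-fold higher of 4, ATPIF1, the natural inhibitor of the enzyme, was at 0.33, and ATPAF2 at -0.48. SDHAF1 and SDHAF2, the listed factors of complex II that were found, were at 0.50 and 0.25. In the synthesis of ubiquinone, 1 of 13 genes was 2-fold higher in TPM and 2 in coverage. They were PDSS2 (1.65 in TPM) and PDSS1 (0.96), both of which build its side chain. ADCK4 (-0.77) and COQ4 (-0.54) were lowest. Beside the counts of these lists, 16.5% of all genes were 2-fold higher in TPM and 19.3% in coverage.

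Of 12 transcription factors of respiratory genes, 8 were measured and 2 were 2-fold higher in TPM, where 16.5% of all genes were. In coverage 4 were, with YY1 (1.02) and GABPB1 (1.18) besides the 2 named next, where 19.3% of all genes were. NFE2L2, a factor of the response to oxidants, was at 11.3 (SC) and 32.1 TPM (AS), with a log2 ratio of 1.43 (2.82 in its locus). CREB1 was at 1.14 (0.81 in its locus). NRF1, whose letters are printed above, was at 6.58 and 12.6 TPM (0.85), SP1 was at 0.52, and ESRRA was lowest at -0.44. GABPA, GABPB2 and the coactivators PPARGC1A and PPARGC1B were below the level measured. Of 7 genes of the mitochondrial transcription system, 3 were 2-fold higher in TPM, MTERF (1.58), TFB2M (1.47) and TFAM (1.36), where 16.5% of all genes were. MTERF, at 0.326 and 2.96 TPM, was below 2-fold in coverage (0.80) and in its assembled locus (0.59), and TFB2M was below it in its locus (0.84). At the other end, POLRMT, the RNA polymerase, was at -0.39 and TFB1M at -0.34 in TPM. The 13 subunits encoded by the mitochondrial genome summed to 98183 (SC) and 108664 TPM (AS) with a median log2 ratio of 0.28 and none past 2-fold. Their sum was 1.11 times higher in AS, where that of the nuclear members was 0.992 times that of SC.

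**Figure D5:**
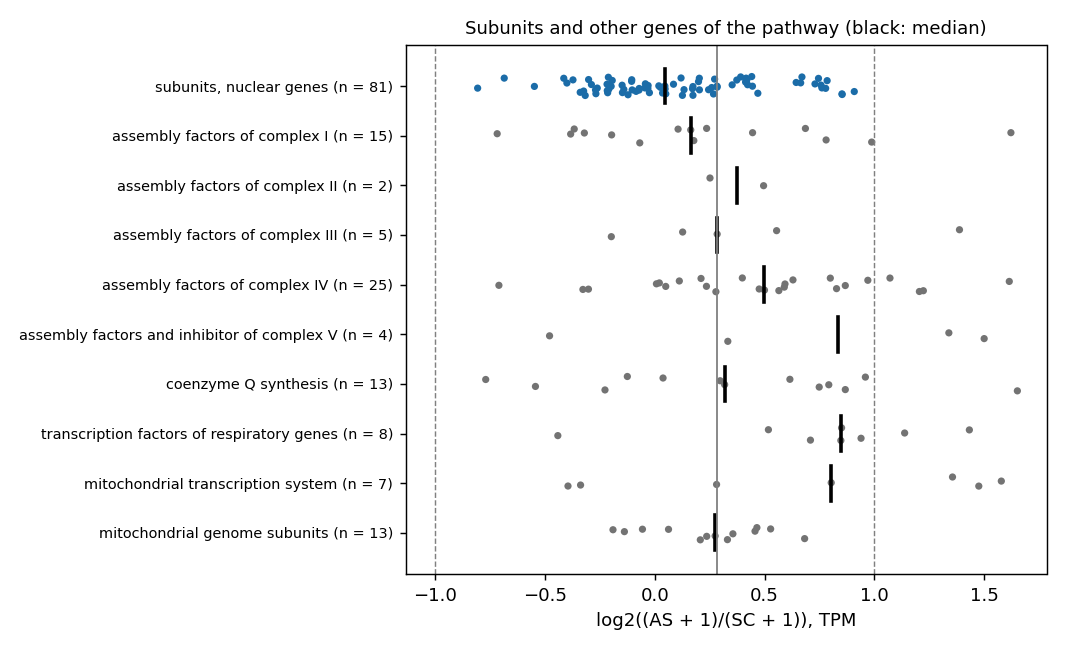
Log2 ratio of AS over SC in TPM (x axis) of each measured gene of the lists (rows), 1 point per gene, beside the nuclear respiratory chain genes, with the median of each row marked and lines at 2-fold. The nuclear subunits and the 13 mitochondrial ones lie between the lines at 2-fold, and each other list except the factors of complex II has points beyond the upper line.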

How the data were processed

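Total RNA of NCI-H2030 was sequenced as 1 library per group. The authors deposited 1 table per library, with TPM, FPKM and coverage columns per the file headers. The TPM column holds annotated genes and loci assembled from the reads on 1 scale, so its total is that of both kinds and it was treated as a signal. Not given in the sources used here were the aligner, the quantification program and the number of reads, and no counting intervals are given. The submitters' processing notes name GRCh38 and hg38, but the coordinates in the tables are those of GRCh37 and equal those of GRCh38 for 0.615% of gene identifiers. GENCODE release 29 was matched by identifier, for all 81 measured members, for GC content, transcript length and 3' untranslated regions, and RefSeq gave promoters and the mature microRNA.

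Rows of 1 symbol were summed (4 members had 2 rows), 1 TPM was added before log2, and genes that averaged 1 TPM or more were kept. Coverage had 0.1 added and was put on the TPM scale by 1 factor per library. The assembled locus of a gene was the one on the same strand that overlapped most of it, chosen in each library separately. Calculations used Python 3.11.15, pandas 2.3.3 and NumPy 2.4.6, and were tested on simulated data. The members and lists were chosen with earlier results of these data known. The genes named were those past 2-fold, the 3 highest and 3 lowest ratios in each complex, the 7 core subunits of complex I, SDHA to SDHD, CYC1, UQCRC1, UQCRC2, UQCRFS1 and CYCS, the isoform families of complex IV and the c ring, members whose TPM and coverage log2 ratios differed by more than 0.7, and the 2 highest and 2 lowest of each list. Other members and list genes named, and the promoter letters, were chosen after their values were seen. Pseudocounts, filters, scalings, columns and memberships were varied. A few values that these rules would name are not reported here.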

Additional observations from a re-analysis of the deposited data

How the results depend on the processing

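Of the values for all members and for complexes I to V (median log2 ratio minus that of all measured genes), the main ones were -0.24, -0.25, 0.13, -0.17, -0.38 and -0.05 in that order. With a pseudocount of 0.1 TPM they were -0.28, -0.29, 0.085, -0.22, -0.42 and -0.10, and with 5 TPM -0.14, -0.15, 0.21, -0.076, -0.28 and 0.0034. FPKM gave -0.23, -0.24, -0.16, -0.37 and -0.043 without complex II, which hardly moved. Coverage gave -0.31, -0.33, -0.035, -0.25, -0.41 and -0.19. Assembled loci gave -0.16, -0.27, 0.022, -0.14 and -0.31 up to complex IV. With the locus of highest TPM over at least 50% of the gene, a choice made after seeing the data, they were -0.13, -0.24, -0.13, -0.11, -0.23 and 0.027. A mean of at least 5 TPM gave -0.15, -0.16, 0.21, -0.090, -0.28 and 0.0037, one of at least 50 TPM, also chosen after seeing the data, 0.042, -0.021, 0.40, 0.091, -0.049 and 0.23, and no filter 0.036, 0.036, 0.41, 0.11, -0.0013 and 0.20. Taking only the largest row of each symbol gave -0.23 for all members. Without genes that are not subunits, complexes III to V were at -0.24, -0.37 and -0.023, and with NDUFA4 in complex IV that complex was at -0.37. The sign for all members thus turned only without a filter or with the filter of 50 TPM, where the median of all genes moved to 0 and -0.04.

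The count of members 2-fold higher was 0 under each setting with that threshold. The count 2-fold lower was 1 (COX6B2) with a pseudocount of 0.1, after centring on the median of all genes and after centring on a trimmed mean. It was 2 in assembled loci and 1 with the locus of highest TPM. Centring left 9.17% of all genes higher and 5.09% lower. At 1.5-fold, 12 members were higher and 2 lower. In coverage 37 of 43 named members moved by less than 0.1.

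With 1 library per group, leaving out a library was not possible, and neither depth nor preparation can be told apart from treatment. No paired analysis was possible because each group held 1 sample and no result came from a test.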

Other observations

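Processed copies of respiratory chain genes are common in the human genome. The 92 pseudogene symbols left out by the name rule summed to 36.3 (SC) and 47.6 TPM (AS), which is 0.180% and 0.238% of the level of the members, and 62 of them were listed at 0 in both libraries. The most abundant was COX6A1P2, at 16.5 (SC) and 20.2 TPM (AS), beside 1043 and 1013 TPM for COX6A1. UQCRFS1, the Rieske protein, was the only member whose pseudogenes reached over 5% of its level, at 9.91% in SC and 10.9% in AS. Its copy UQCRFS1P1 was at 7.81 and 8.84 TPM.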
